A study of Mus musculus with 2 samples.

Results

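Small heat shock proteins are chaperones that bind unfolding proteins without using ATP and hold them until other chaperones refold them or pass them on for degradation. BAG3 is a cochaperone that ties HSPB8 to HSP70 (the ATP-driven chaperone family) and directs damaged filament proteins of striated muscle, filamin C among them, to autophagy, a route known as chaperone-assisted selective autophagy. In muscle these proteins guard desmin filaments and the Z-disc, and mutations in several of their genes cause myopathy or motor neuropathy.

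The 8 genes described here are the muscle members of the family (Hspb1, Hspb2, Hspb3, Hspb6, Hspb7, Hspb8 and Cryab) and Bag3, chosen by symbol among the 16190 genes of the count table. All 8 were found. The RNA came from satellite cells, the resident stem cells of muscle, taken from tibialis anterior of C57BL/6 mice. One library (the control) is labelled Cipc flox/flox and titled Cipc+/+, the other is labelled Cipc scko and titled Cipc-/-. Cipc encodes a repressor of the circadian factors CLOCK and BMAL1. The series title speaks of a deletion specific to satellite cells and of mdx mice, which lack dystrophin; the labels of these libraries do not mention mdx. No source used here gives the Cre driver, the age of the mice, the number of animals pooled or any culture of the cells. Below, these are called the control and scko. Each group is a single library, so differences could not be checked against replicates. The values compare 2 libraries, not 2 genotypes, and every interval is an exact binomial (Clopper-Pearson) 95% interval that covers counting error only.

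The libraries held 16830168 counts (scko) and 16145870 counts (control). Levels are given as CPM, counts scaled to library size after TMM correction for differences in RNA composition. Cipc itself stood at 37.0 CPM in scko and 113 CPM in the control (log2 ratio -1.61, interval -1.74 to -1.47), so some Cipc RNA was counted in the library labelled as the deletion. The libraries also differed in sex-linked RNA: Xist had 4 counts in scko and 3898 in the control, and the Y-linked Ddx3y had 511 and 0. The sex of the animals and the genotype cannot be told apart in any value below. Satellite cell markers were present in both libraries: 6 of 8 were analysed, with summed levels of 2319 CPM in scko and 1832 CPM in the control, although Pax7 stood at only 2.54 CPM in the latter against 62.2 CPM in the former. All 8 markers of committed myogenic cells were higher in scko, by the 2-fold rule given below that called 21.2% of all genes higher. Their summed levels were 17322 and 165 CPM, mostly Acta1 in scko (10868 CPM) and Myod1 in the control (113 CPM). Ckm and Myh3, with 3 and 6 counts in the control, passed the filter on low counts given below only through scko. In bulk RNA a different share of cells of a type and a different amount of RNA per cell cannot be told apart.

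RefSeq promoter sequences (GRCm38.p6, from 250 bases before to 50 bases after the annotated start) were found for 6 of the 8 genes, in 7 windows because Hspb6 has 2 starts; Hspb2 and Cryab were not matched. They are shown because heat shock genes are known for a short inverted repeat, the heat shock element, that the transcription factor HSF1 binds. The windows were searched for GAANNTTC and TTCNNGAA (each reads the same on both strands). A match was present in 5 of the 6 genes and in 5 of their 7 windows, against 15.1% of all 32851 promoter windows of that length. The same 8 letters, GAAGTTTC, occurred in 4 of the 6 genes and 4 of the 7 windows, and in 1.21% of all windows. This exact word was singled out after the sequences were seen. The stretches of 30 bases around the matches follow, 5′ to 3′ on the strand of the gene, with the match in capitals.
Hspb1, chr5:135887791-135887820 (+): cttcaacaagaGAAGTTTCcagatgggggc
Hspb1, chr5:135887811-135887840 (+): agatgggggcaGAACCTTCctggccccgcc
Hspb6, chr7:30553170-30553199 (+): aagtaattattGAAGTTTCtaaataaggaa
Hspb8, chr5:116422844-116422873 (-): agaagccaggaGAAGTTTCtaggctcgcga
Bag3, chr7:128523603-128523632 (+): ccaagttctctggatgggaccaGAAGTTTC
Hspb3, chr13:113663882-113663911 (-): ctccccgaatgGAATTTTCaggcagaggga

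The matches differed in place. Counted from the start, their first base lay at -117 and -97 in Hspb1, at -120 in the downstream Hspb6 window, at 3 in Hspb8, at 43 in Bag3 and at -224 in Hspb3. Hspb1 was the only one of the 6 with 2 matches. Its 250 bases before the start are given whole, since this gene is the single member called lower below, with both matches in capitals.
Hspb1, chr5:135887669-135887918 (+): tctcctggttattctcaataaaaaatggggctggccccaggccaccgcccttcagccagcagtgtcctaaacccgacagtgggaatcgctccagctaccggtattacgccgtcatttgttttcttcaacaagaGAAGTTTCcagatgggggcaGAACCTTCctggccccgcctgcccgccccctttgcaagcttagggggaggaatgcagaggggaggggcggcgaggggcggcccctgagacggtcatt

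Hspb7 had no match of either form in its window. Its 250 bases before the start are shown because its difference between libraries was among the largest of the members. Hspb3, with a match, is also called higher below, and Hspb6, Hspb8 and Bag3, with matches, are not called. Any link between matches and levels was not tested.
Hspb7, chr4:141420529-141420778 (+): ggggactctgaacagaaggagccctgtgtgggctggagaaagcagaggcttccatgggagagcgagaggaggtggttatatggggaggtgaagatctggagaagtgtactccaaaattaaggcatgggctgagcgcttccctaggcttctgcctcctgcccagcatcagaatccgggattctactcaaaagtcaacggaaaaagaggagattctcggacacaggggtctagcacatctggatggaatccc

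The general E-box CANNTG is a motif of myogenic factors such as MYOD. It was present in 4 of the 6 genes (Hspb1, Hspb3, Hspb7 and Hspb8). That is 4 of their 7 windows, against 72.3% of all windows. TATAAA was present in Hspb3 and in the downstream window of Hspb6, and in 13.6% of all windows. These are matches of letters only; no binding was measured.

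The 8 genes did not move together. A call needed a difference of at least 2-fold and a counting interval that excluded equality. By this rule 3 of the 8 members (Hspb2, Hspb3 and Hspb7) were higher in scko, Hspb2 subject to its overlap with Cryab described below, 1 (Hspb1) was lower, and 4 (Hspb6, Hspb8, Cryab and Bag3) were neither. Of the 12874 genes that passed the filter on low counts, 21.2% were called higher and 15.9% lower, 37.2% in either direction. Calls on 4 of 8 members are therefore near the rate of the whole table, and no more is read from their number. At a limit of 1.5-fold, 4 members were higher (29% of all genes) and 1 lower (25.8%; 54.8% in either direction). At 4-fold, 3 members were higher (12.5% of all genes) and 0 lower (6.68%; 19.2% in either direction). The median log2 ratio of the members was 0.59, against 0.01 over all genes. All 8 passed the filter, Hspb3 and Hspb7 only through their level in scko.

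**Figure D1:**
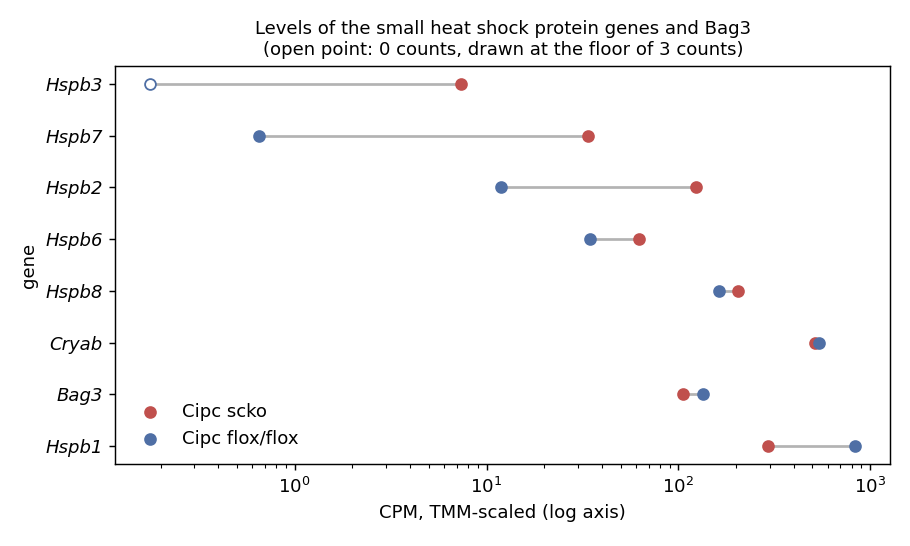
CPM (log axis) of each gene in Cipc scko (red) and the control, Cipc flox/flox (blue), joined by a line; the open point marks Hspb3 at 0 counts, drawn at the floor of 3 counts. The lines of Hspb3, Hspb7 and Hspb2 are the longest and run to the right, from at most 11.9 CPM in Cipc flox/flox, whereas the line of Hspb1 runs to the left, from 836 to 292 CPM.

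Hspb1 encodes HSP27 (HSP25 in the mouse), an actin-protecting chaperone that the kinase MAPKAPK2 phosphorylates. It had 4688 counts in scko and 14145 in the control, or 292 and 836 CPM. It was thus the most abundant member by CPM in the control and the second, after Cryab, in scko. The log2 ratio was -1.52 (-1.56 to -1.47), a 2.86-fold lower level, and 9.24% of all genes were at or below that ratio. The gene (ENSMUSG00000004951, GRCm38 chromosome 5, 135887919 to 135889563) has a near-identical processed copy, Hsp25-ps1 on chromosome 13 (45078498 to 45079127), which matches it over 630 bases at 99.4% identity. The copy was counted separately, with 1291 counts in scko and 3961 in the control. It took 21.6% of the counts of the pair in scko and 21.9% in the control, and its own log2 ratio was -1.54 (-1.63 to -1.45). How the reads were divided between the pair is uncertain, but the summed counts of 5979 and 18106 gave nearly the same ratio as Hspb1 alone (-1.52, -1.56 to -1.48).

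Hspb2 and Hspb3 encode chaperones that are largely restricted to striated muscle, form a complex with each other and are known to be switched on during myogenic differentiation. Hspb2, which also binds the myotonic dystrophy kinase DMPK, had 1987 counts in scko and 202 in the control (124 and 11.9 CPM). Its log2 ratio was 3.37 (3.16 to 3.59), a 10.3-fold higher level. Hspb2 overlaps Cryab on the other strand, so its separate count is uncertain to that extent. The summed counts of the pair gave 0.22 and were not called. Cryab makes up most of that sum, so the sum cannot decide the call on Hspb2. Hspb3 had 118 counts in scko and 0 in the control. Set against 3 counts as a floor for the control, 0.177 CPM, Hspb3 was at least 41.5-fold higher in scko. Both genes were low or undetected in the control library, but they did not reach the same level in scko: per length, Hspb2 exceeded Hspb3 by 15.7 times there (13.0 to 19.0), as a ratio of deposited FPKM, which are counts scaled by gene length and library size. As many genes as 7.97% of the table had a ratio as high as that of Hspb2, and 1.80% one as high as the fitted ratio of Hspb3.

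Hspb7, the cardiovascular small heat shock protein that binds filamin C at the Z-disc, showed the same direction. It had 545 counts in scko and 11 in the control, or 33.9 and 0.650 CPM. The log2 ratio was 5.64 (4.86 to 6.72), a 49.95-fold difference whose interval, from 28.96-fold to 105-fold, is wide because of the 11 counts. Of all genes 4.58% had a ratio as high or higher. Hspb2, Hspb3 and Hspb7 were higher in scko, as were the 8 committed myogenic markers (17322 against 165 CPM summed) and 21.2% of all genes. With 2 libraries any gene higher in scko shares this direction, and a link to the markers was not tested.

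Cryab encodes alpha-B-crystallin, the main chaperone of desmin filaments. It had 8278 counts in scko and 9120 in the control (516 and 539 CPM). It was the most counted member in scko. The log2 ratio of -0.06 (-0.11 to -0.02) was close to equality. Cryab (chromosome 9, 50751325 to 50756636, plus strand) and Hspb2 (50751078 to 50752354, minus strand) overlap on opposite strands. They share 1030 bases, 252 of them exonic in both. Whether counting used strand is not stated in any source used here, so reads of these bases could be given to either gene, and the separate values of both are uncertain to that extent. The summed counts of the pair were 10265 and 9322, a log2 ratio of 0.22 (0.17 to 0.26). That sum is dominated by Cryab and did not reach 2-fold.

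Hspb6 encodes HSP20, a chaperone of smooth, skeletal and cardiac muscle that protein kinase A phosphorylates and that can bind BAG3. It had 1003 counts in scko and 586 in the control (62.5 and 34.6 CPM). The log2 ratio was 0.85 (0.70 to 1.001), which was 1.80-fold and not called. Its exons share 122 bases with those of Proser3 on the other strand, so its count is uncertain to that extent; Proser3 had 113 and 96 counts.

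The RNA of Hspb8 and Bag3, whose proteins form a complex, differed little between the libraries and in opposite directions. Hspb8, the partner that BAG3 holds in a stable complex, had 3282 counts in scko and 2765 in the control (204 and 163 CPM). Its log2 ratio was 0.32 (0.25 to 0.40). Bag3 had 1698 and 2267 counts (106 and 134 CPM) and a log2 ratio of -0.34 (-0.43 to -0.25). Neither difference reached 1.4-fold, although both counting intervals excluded equality. Per length, as a ratio of deposited FPKM, Bag3 RNA stood to Hspb8 RNA as 0.505 (0.476 to 0.536) in scko and as 0.8004 (0.757 to 0.846) in the control. The counting intervals of these ratios did not overlap. Variation between animals is not in these intervals, and how many other gene pairs differ as much was not computed.

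**Figure D2:**
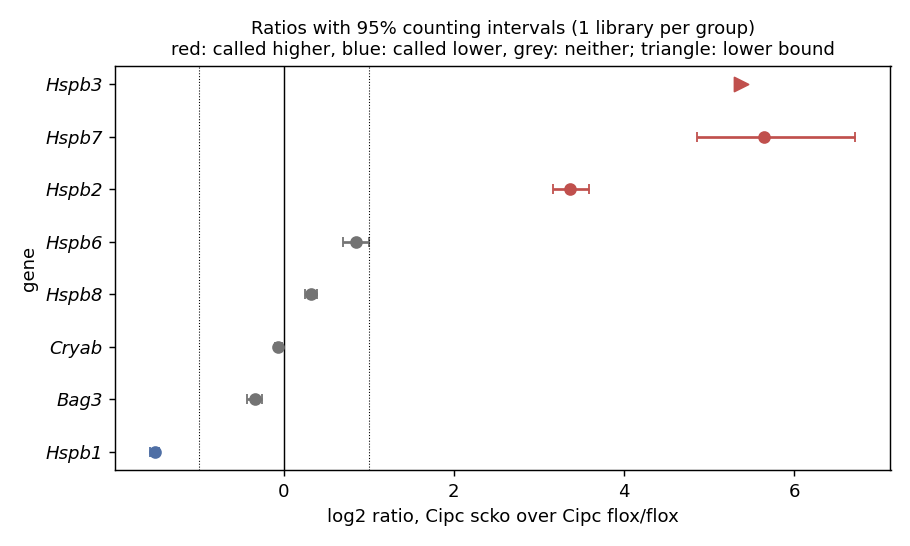
Log2 ratio of scko over control for each gene, with 95% counting intervals as bars and dotted lines at 2-fold. Hspb3 (triangle, a lower bound), Hspb7 and Hspb2 lie right of the 2-fold line, Hspb1 lies left of it at -1.52, and the 4 other genes lie between the lines.

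The make-up of the small heat shock protein RNA differed between the libraries. The deposited FPKM of the 7 genes summed to 819 in scko and 1046 in the control. In the control, Hspb1 and Cryab had almost the same share of the sum, 45.7% and 45.6%. In scko the share of Hspb1 was 18.6% and that of Cryab 50.7%. Hspb2 took 1.42% in the control and 17.2% in scko. Hspb8 took 6.55% and 9.52%, and Hspb6, Hspb7 and Hspb3 at most 1.57% each in either library. Among all genes, ordered by FPKM, Hspb1 was at place 79 in the control and at place 298 in scko. Cryab kept a high place in both (82 and 95).

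How far Hspb1 and Cryab stood apart within a library depended on the length used; their order was the same in all 3 units. The length implied by the deposited counts and FPKM was 1833 bases for Hspb1, equal to its 2 annotated transcripts added together and longer than the whole gene of 1645 bases. For Hspb6 the implied length was 4622 bases, in a gene of 3266. For Hspb7, Hspb3 and Bag3, with 1 transcript each, it equalled that transcript. Divided by the exon bases of GENCODE vM21 instead (an alternative added after seeing the data), Hspb1 took 62.9% and Cryab 28.3% of the sum in the control, and 30.3% and 37.3% in scko. Hspb2 took 15.9% in scko by that length, well under Hspb1. The lower share of Hspb1 and the higher shares of Cryab and Hspb2 in scko were present with both lengths. The level of Cryab itself was not higher in scko (FPKM 415 against 477). As shares of the counts themselves, Hspb1 made up 52.7% (exact interval 52.1 to 53.3) of 26829 counts in the control and 23.6% (23.0 to 24.2) of 19901 counts in scko.

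**Figure D3:**
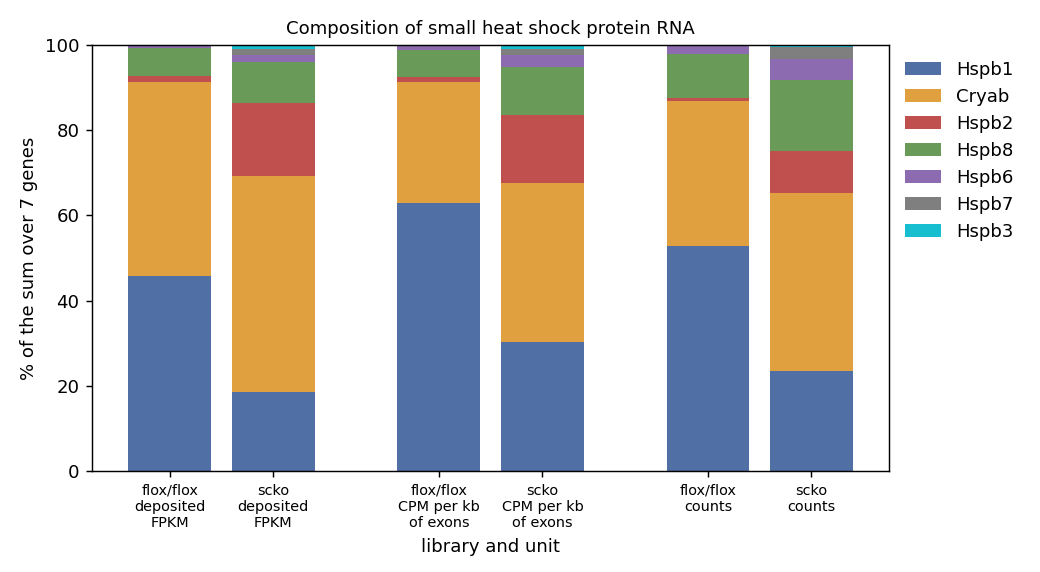
Share of each of the 7 small heat shock protein genes in their sum (%, bars to 100), in each library, by deposited FPKM, by CPM per kilobase of annotated exons and by counts. In each of the 3 units the Hspb1 part (blue) is smaller in scko, 18.6% against 45.7% by FPKM, and the Hspb2 part (red) is larger, 17.2% against 1.42%.

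Genes next to the members on the chromosome were set beside them. Only protein-coding genes in the count table were considered, so a closer gene without an entry would be passed over. Of 14 such nearest genes outside the family, 11 passed the filter. Of these, 0 were called higher or lower by the 2-fold rule, against 37.2% of all genes. No test was made because the libraries have no replicates. The log2 ratios of the 11 ran from -0.85 (Snx18, a sorting nexin gene beside Hspb3) to 0.93 (1110032A03Rik, beside Cryab). Hspb1 stood at -1.52 between Mdh2 (-0.27) and Ywhag (-0.41), which encodes the 14-3-3 protein that BAG3 binds. Hspb3 lay between Snx18 and Arl15 (-0.30), and Zbtb17 (-0.08) was next to Hspb7. Ccdc60 and Srrm4, on either side of Hspb8, had at most 6 counts in a library and did not pass. None of the 11 neighbours reached the 2-fold limit that Hspb1, Hspb2, Hspb3 and Hspb7 exceeded. Those members were singled out by that same limit, and whether neighbouring genes differ together was not tested.

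**Figure D4:**
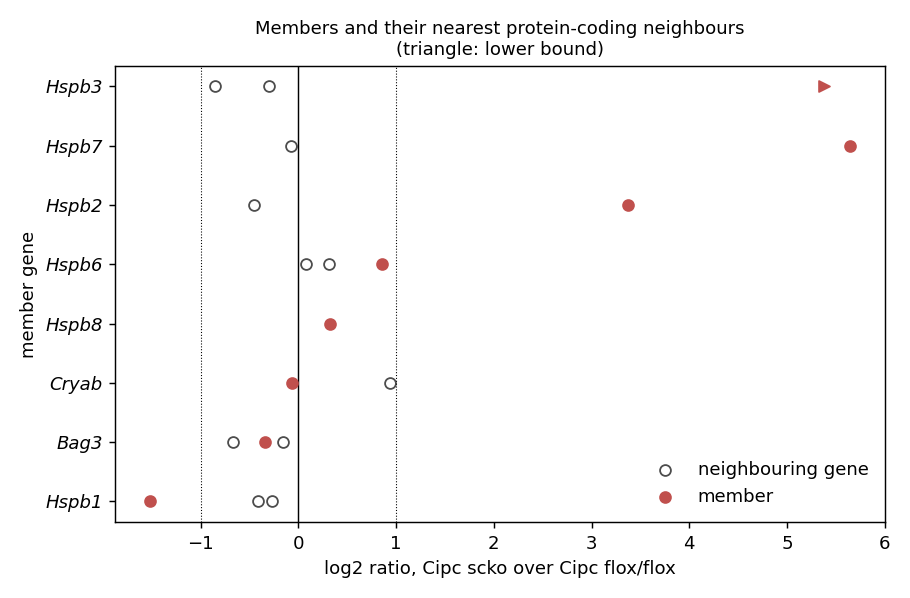
Log2 ratio of scko over control for each member (red, triangle for the lower bound of Hspb3), with dotted lines at 2-fold. Open circles are its nearest protein-coding neighbours in the count table, where they passed the filter. All open circles lie between the 2-fold lines, from -0.85 to 0.93, while Hspb1, Hspb2, Hspb3 and Hspb7 lie outside them; Hspb8 had no neighbour past the filter.

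Other members of both families were compared next. Of 10 listed relatives, 7 passed the filter, with a median log2 ratio of -0.06. Of these, 2 were called higher (28.6%, against 21.2% of all genes) and 0 lower (against 15.9%). Cryaa, Hspb9 and Odf1 had no entry in the count table. Bag2, a cochaperone that inhibits the ubiquitin ligase CHIP, stood at 96.7 CPM in scko and 47.0 CPM in the control (1.04, 0.92 to 1.17). Hspb11, an intraflagellar transport protein in spite of its name, stood at 20.4 and 7.50 CPM (1.44, 1.14 to 1.75). Bag1, Bag4, Bag5 and Bag6 had log2 ratios of -0.24, -0.35, -0.14 and -0.06, and Hspbap1 of 0.08, none of them called. Bag2 was thus the only BAG gene analysed that was called, and it lay close to the 2-fold limit.

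HSF1 is the factor that switches on Hspb1 and Bag3 under heat stress. Of 19 heat shock factor and target genes past the filter, 6 were lower in scko (31.6%, against 15.9% of all genes), 1 was higher (5.26%, against 21.2%) and 12 were neither, with a median log2 ratio of -0.57 against 0.01 for all genes. Hsf1 itself stood at 63.7 and 97.0 CPM (-0.61, -0.72 to -0.49) and was not called. The lowest member was Hspa4l, a nucleotide exchange factor of HSP70, at 16.7 CPM in scko and 147 CPM in the control (-3.14, -3.33 to -2.96). Hsp90aa1, the inducible HSP90 gene, had a log2 ratio of -1.74 (-1.81 to -1.67), near that of Hspb1; it has near-identical copies. The highest was Hspa1a, inducible HSP70, with 238 and 48 counts (2.37), while its near-identical copy Hspa1b had 259 and 779 (-1.51). Because the copies match over 2201 bases at 99.2% identity, only their sum is certain, and that was 497 and 827 counts (-0.66, -0.82 to -0.50). In this list 8 genes had such copies. Of the genes called lower, Hspa1b, Hsp90aa1, Dnaja1 and Hspd1 had copies, and Hsph1 and Hspa4l had none. The only gene called higher, Hspa1a, also had a copy. The share called lower thus rests mostly on genes with copies, whose separate counts are uncertain. Among the 11 genes without copies the median log2 ratio was -0.53.

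BAG3 works with HSP70 proteins and their cochaperones. Of 22 such genes past the filter, 3 were higher (13.6%, against 21.2% of all genes), 1 was lower (4.55%, against 15.9%) and 18 were neither, with a median log2 ratio of -0.12 and a range from -1.36 to 2.26. Hspa8, the constitutive HSP70 that BAG3 docks to, stood at 1562 CPM in scko and 1492 CPM in the control (0.07, 0.04 to 0.09), with near-identical copies elsewhere. The highest member was Dnajb5, a J-domain cochaperone, at 92.9 and 19.4 CPM (2.26, 2.09 to 2.44). The lowest was St13, which encodes the HSP70-interacting protein HIP, at 248 and 637 CPM (-1.36, -1.42 to -1.31).

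Of 22 genes of chaperone-assisted selective autophagy past the filter, 2 were higher (9.09%, against 21.2% of all genes), 3 were lower (13.6%, against 15.9%) and 17 were neither (median log2 ratio -0.38). Synpo2, a Z-disc protein that works with BAG3 in forming autophagosomes, stood at 129 CPM in scko and 23.5 CPM in the control (2.45, 2.30 to 2.61). Sqstm1, the p62 autophagy receptor that binds the ubiquitinated clients, stood at 489 and 1720 CPM (-1.81, -1.85 to -1.78). Stub1, which encodes CHIP, the ubiquitin ligase of the complex, was not called (-0.50, -0.58 to -0.43). The lists share Hspa8, Hspa4 and Dnajb6, so they are not independent of each other.

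Genes of the proteins that this machinery guards had the highest median of the lists. Of 26 filament and Z-disc genes past the filter, 13 were higher in scko (50%, against 21.2% of all genes), 3 were lower (11.5%, against 15.9%) and 10 were neither, with a median log2 ratio of 0.92. Of the 13, Actn2, Myot, Csrp3, Tcap and Myoz2 passed the filter only through scko, with 0 to 4 counts in the control. The 8 committed myogenic markers were higher in the same library (17322 against 165 CPM summed), and their part in these differences was not tested. Csrp3, the muscle LIM protein of the Z-disc, had 3205 counts in scko and 0 in the control, at least 1126-fold higher. Actn2, the alpha-actinin of muscle Z-discs, had 9062 counts in scko and 1 in the control (12.62, 10.74 to 18.53). Flnc, filamin C, the main client of the BAG3 complex, stood at 1417 and 509 CPM (1.48, 1.44 to 1.51). Des, desmin, the filament that CRYAB guards, stood at 4451 and 1977 CPM (1.17, 1.15 to 1.19). Flnc and Des were thus called higher, whereas Bag3, Hspb8 and Cryab, set beside them, were not.

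Of 22 kinases and binding partners of the small heat shock proteins past the filter, 7 were higher (31.8%, against 21.2% of all genes), 5 were lower (22.7%, against 15.9%) and 10 were neither (median log2 ratio 0.09). Mapkapk3 and Mapk13 passed only through scko and Bcl2 only through the control. The sign of that median turned when libraries were scaled by totals (-0.049). Mapkapk2, the kinase that phosphorylates HSPB1, stood at 272 CPM in scko and 158 CPM in the control (0.78, 0.71 to 0.85) and was not called. Mapk14, the p38 kinase above it, stood at 34.8 and 96.1 CPM (-1.46, -1.61 to -1.32). Dmpk, whose product HSPB2 binds, stood at 458 and 136 CPM (1.75, 1.68 to 1.82). The highest member was Mapk13, another p38 kinase, with 222 and 0 counts, at least 78.0-fold higher, and the lowest was Bcl2, the anti-apoptotic factor that BAG3 can bind, with 12 and 118 counts (-3.17, -4.21 to -2.36).

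**Figure D5:**
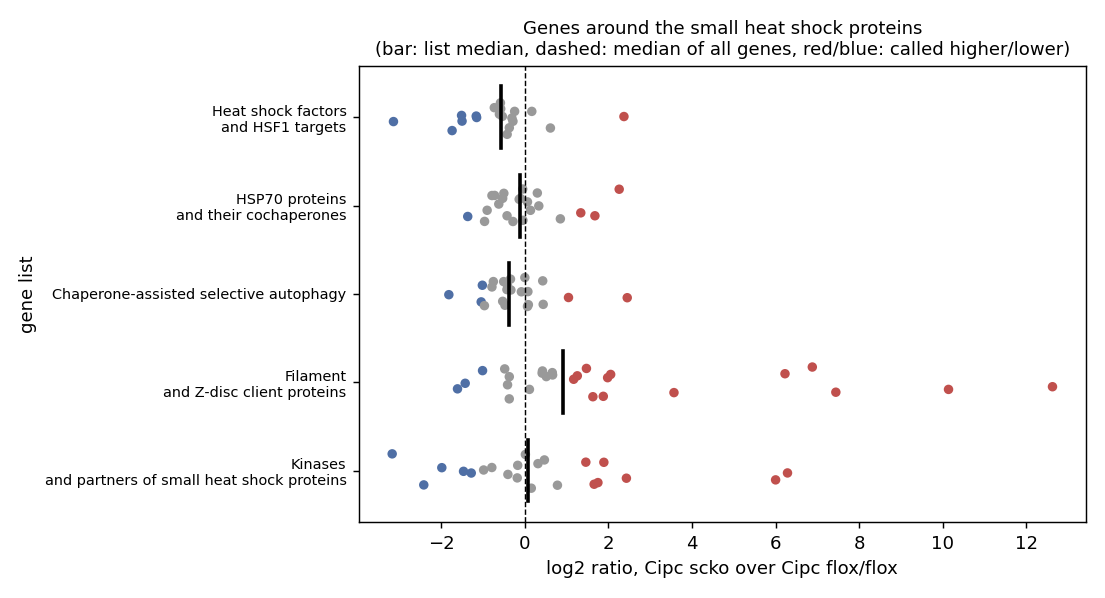
Log2 ratio of scko over control for each gene past the filter in the 5 lists; red points were called higher and blue ones lower, black bars are list medians and the dashed line is the median of all genes (0.01). The bar of the filament and Z-disc list stands at 0.92 and that of the heat shock factor list at -0.57; genes at 0 counts in the control are drawn at their lower bound.

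Markers of other cell types that express small heat shock proteins also differed between the libraries. Of 10 smooth muscle and pericyte markers 7 were analysed, of which 6 were higher in scko and 1, Cspg4, was lower. Of all genes, 21.2% were called higher and 15.9% lower. Cnn1, Mcam and Abcc9 passed the filter only through scko, and Cspg4 only through the control. The summed levels of the 7 were 14198 and 663 CPM, mostly Acta2. The defining markers Myh11, Rgs5 and Kcnj8 had no entry in the count table for either library. Abcc9 was at 0 in the control, and early myogenic cells are known to express Acta2 and Tagln as well. Cardiac muscle markers were low, 2 of 4 analysed, with summed levels of 6.85 and 0.177 CPM and Myh6 at 0 in the control. Endothelial, macrophage and Schwann cell markers summed to at most 8.22 CPM in scko and at most 47.3 CPM in the control; Tek was at 0 in the former and Pecam1 in the latter. Of 6 fibro-adipogenic markers 5 were analysed, and they summed to 871 and 1395 CPM. Among them Dcn (1 and 142 counts), Pdgfra (11 and 147) and Col1a2 (277 and 13597) were lower in scko, and Col1a1 (7196 and 1957) was higher. Dcn and Pdgfra passed the filter only through the control. The part of each of these, and of the committed myogenic genes given above, in the ratios of the 8 members was not tested.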

How the data were processed

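The authors deposited 1 table of raw counts by Ensembl gene ID, and separate FPKM tables, per the file headers. HISAT2 2.0.4, StringTie 1.3.0, CASAVA and the GRCm38 build are listed without roles, per the submitters' processing notes; no source used here gives the annotation release, counter or strand setting. FPKM ratios divided by ratios of counts scaled to library totals, without TMM, gave 0.9996 to 1.0002, so they are not an independent measurement. Symbols came from GENCODE vM21 (16116 of 16190 genes). Counts were scaled with TMM (edgeR 4.0.16, R 4.3.3). Genes entered with at least 1 CPM in a library and 20 counts over both. Log2 ratios used a prior count of 0.5. With 1 library a group there is no residual spread and hence no p-value. The calling rule was checked on simulated data that held counting error only, so that check does not cover variation between animals. BLAST+ 2.17.0 was used to look for near-identical copies (95% identity, and 80% of the shorter transcript with at least 300 bases, or 1000 bases). Protein sequences were not used here, so the planned comparison of proteins was not made.

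The members and lists were chosen with earlier results of these data known. Named genes are the 8 members, Cipc, the highest and lowest gene of each list, the relatives and the neighbours; some of these are not reported here. Actn2, Myot, Tcap, Myoz2, Mapkapk3, Flnc, Des, Hspa8, Hsf1, Hsp90aa1, Hspa1b, Stub1, Mapkapk2, Mapk14, Dmpk, Hsp25-ps1 and single markers were named after their values were seen. Alternatives were size factors of DESeq2 1.42.0, upper-quartile or total-count scaling, other filters, fold limits, a prior count of 5, and FPKM with a pseudocount of 0.1 or 1.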

Additional observations from a re-analysis of the deposited data

How the results depend on the processing

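No paired analysis was possible because each group has 1 library, and leaving out a replicate was not possible either. The calls on all 8 members, higher, lower or neither, were the same under the 3 other scalings, the prior count of 5 and FPKM with both pseudocounts. The median over all genes shifted by -0.14 with scaling by totals. The 2-fold rule called 3 members higher and 1 lower; a fold limit of 4 called 0 lower, since it lies beyond the ratio of Hspb1. Summed counts of Cryab and Hspb2, added after seeing the data, gave 0.22, under 2-fold and opposite in sign to Cryab alone. Cryab makes up most of the sum, so the sum cannot decide the call on Hspb2. The higher Hspb2 count in scko outweighs the lower Cryab count. With scaling by totals the list medians were -0.71 (heat shock factors and targets), -0.25 (HSP70 and cochaperones), -0.51 (selective autophagy), 0.78 (filament and Z-disc) and -0.049 (kinases and partners). Without genes that have near-identical copies, also added later, the filament and Z-disc median was 1.17 and the kinase and partner median -0.076. As shares of counts, Hspb1 took 23.6% in scko and 52.7% in the control, Cryab 41.6% and 34.0%, and Hspb2 9.98% and 0.753%. Per kilobase of vM21 exons, the shares were 30.3% and 62.9% for Hspb1, 37.3% and 28.3% for Cryab, and 15.9% and 1.11% for Hspb2. Depth limits Hspb3 and Hspb7, with 0 and 11 counts in the control.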

Other observations

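The length implied by the deposited counts and FPKM was set against GENCODE vM21 over the whole table. Of 2816 genes with 1 annotated transcript, it equalled that transcript in 2319, within 1 base. Of 13300 genes with several transcripts, it equalled the sum of the transcripts in 897 and the union of their exons in 112. It exceeded the union of exons in 10372 of them and the span of the whole gene in 953, Hspb1 and Hspb6 among these. Ratios between libraries are not affected, since the same length enters both, but levels set side by side for different genes are.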
